A study of Mus musculus with 2 samples.

Results

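The Hox genes are the homeobox genes that lie side by side in 4 clusters of the mouse genome. They were taken here as every protein-coding gene of the GENCODE M21 annotation named Hoxa, Hoxb, Hoxc or Hoxd with a number, which gave 39 of 21911 protein-coding genes. The HoxA cluster holds 11 of them, HoxB 10, HoxC 9 and HoxD 9. The number in a gene's name is its paralogue group, from 1 to 13, and genes of the same group in different clusters are copies of one ancestral gene.

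Hox proteins are transcription factors that bind DNA together with Pbx and Meis cofactors and give each level of the body axis its identity. The order of the genes along a cluster follows the order in which they are used from head to tail, with group 1 used in the hindbrain and group 13 in the tail. The forebrain, from which the cerebral cortex forms, lies in front of the Hox-expressing part of the neural tube. In cells that do not use them, Hox clusters are known as targets of Polycomb complexes, and the DNA-binding protein CTCF is known to bind between Hox genes and to part domains of chromatin there.

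The study mapped DNase I cleavage, which marks DNA not covered by nucleosomes, in 2 libraries of left cerebral cortex from male B6CASTF1/J mice, an F1 hybrid strain, at 14 days of age. The label of replicate 1 names 3 males and that of replicate 2 names 1 male. Both carry 1 donor identifier, so the spread between the libraries may not be a spread between unrelated animals. There was 1 group and no treatment, so values are given per library with mean and SD (n = 2), and no p-value is given. The tissue is a mixture: a weak peak from all cells and a strong peak from few cells cannot be told apart.

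The libraries held 150726 and 155536 peaks in replicates 1 and 2, and 78.7% and 76.3% of them overlapped a peak of the other library. Peak signal is the authors' value for the highest cleavage density in a peak, scaled by them to depth. Its median over all peaks was 0.549 in replicate 1 and 0.663 in replicate 2. Total reads are not in the files used here. The 12 fixed marker genes of cortex all had a promoter peak in both libraries, with a summed signal of 26.8 in replicate 1 and 33.5 in replicate 2. Of 10 markers of hindbrain and spinal cord, 4 had one in both libraries, Egr2, Tph2 and Isl1 among them, with a summed signal of 12.3 in replicate 1 and 11.2 in replicate 2 over the list. Gabra6, Barhl1, Chat and Slc6a2 of that list had none in either library. Markers of other cell types in the tissue had a promoter peak in both libraries at 6 of 8 genes for microglia, 5 of 8 for endothelium, 5 of 8 for fibroblasts and meninges and 1 of 8 for blood. Of all protein-coding genes 66.7% had one in both. The lists also differ in CpG dinucleotides near the 5′ end, with a median count of 55 for cortex and 70.5 for hindbrain and spinal cord. It was 28 for microglia, 45 for endothelium, 66 for fibroblasts and meninges and 18 for blood. From the lowest to the highest quartile of this count, 15.4%, 62.3%, 93% and 96.3% of all genes had a peak. The counts alone do not show which of these cells were present. The part of these cells in the Hox signals was not tested.

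Most Hox promoters had no peak. A promoter was called open when a peak lay within 1000 bp of any annotated start of the gene. In each library 10 of the 39 Hox genes had an open promoter, against 68.7% of all protein-coding genes in replicate 1 and 68.1% in replicate 2. Both libraries listed a peak at 9 Hox promoters (23.1%), against 66.7% of all genes. Neither library listed one at 28 Hox promoters, where 29.8% of all genes had none. The deposited intervals of the local cleavage rate with a false discovery rate (q) of at most 0.05 are made from the same cleavage data and gave the same counts. In them, 9 Hox promoters (23.1%) held an interval in both libraries, against 67.4% of all genes, and 28 (71.8%) held none in either, against 29%.

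Promoters rich in CpG dinucleotides are open in most tissues, so the Hox genes were set beside genes of like CpG count. The 2 kb windows around the Hox 5′ ends held a median of 88 CpG, against 61 over all genes. In the quartile with the most CpG, 3 of 16 Hox promoters were open in both libraries, against 96.3% of all 5464 genes of that quartile; per library they were 4 and 3 of 16, against 97.4% and 96.5%. In the next quartile 5 of 17 were open, against 93%. Of the 5 Hox genes in the second-lowest quartile Hoxc6 alone was open in both, against 62.3% of all genes there, and Hoxb2, the 1 gene in the lowest, was not. Among the 5464 CpG-richest genes, 130 (2.38%) had no promoter peak in either library. Hox genes made up 12 of those 130 (9.23%), and these were 30.8% of all Hox genes, while Hox genes made up 0.293% of the quartile.

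**Figure D1:**
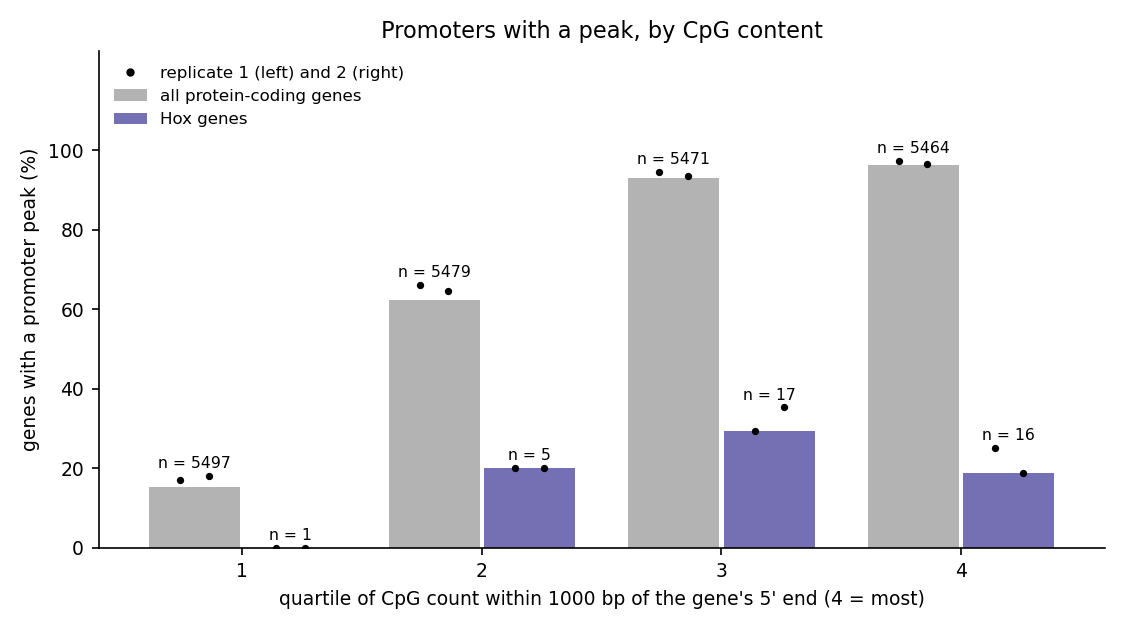
Percent of genes with a promoter peak (vertical axis) in each quartile of CpG count (horizontal axis); bars show genes with a peak in both libraries, points the percent in replicate 1 and replicate 2, grey all protein-coding genes and purple Hox genes. In the upper 2 quartiles over 90% of all genes are open, and the Hox bars stand at 29.4% and 18.8%.

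The Hox promoters that were open were weak. Their median signal was 0.511 in replicate 1 and 0.47 in replicate 2, while the median over all open promoters was 3.47 and 3.91. The lower quartiles over all open promoters were 1.41 and 1.56, and Hoxa7 was the 1 Hox gene above them. Every value below is the signal of the strongest promoter peak.

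Hoxa7, a trunk gene of the middle of HoxA, had the strongest promoter, at 2.75 in replicate 1 and 1.73 in replicate 2 (2.24 ± 0.721, SD, n = 2). Its peak lies at the most upstream of 5 annotated starts, outside the coding sequence at chr6:52215720-52218017. This promoter ranked at the 41.9th and 27.2nd percentile of all open promoters. The other open Hox promoters lay between the 1.32nd and the 17.1st percentile, so below the lower quartile of all open promoters of the genome.

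Hoxa10, a posterior gene known from limb and uterus development, followed at 0.852 and 0.842 (0.847 ± 0.00771). Hoxc5 was at 0.923 and 0.627 (0.775 ± 0.21), and Hoxa4, whose paralogues mark the lower hindbrain and neck, at 0.649 and 0.663 (0.656 ± 0.0103). The order of these 3 genes cannot be told from 2 libraries, since the values of Hoxc5 span those of the other two.

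Hoxb5 was at 0.526 and 0.504 (0.515 ± 0.0155) and Hoxc6 at 0.417 and 0.418 (0.417 ± 0.000672). The Hoxc6 peak began 974 bp from the most upstream of 3 annotated starts. This is close to the limit of the window, and the peak is not counted in a window of 500 bp. Hoxd1 was at 0.497 and 0.319 (0.408 ± 0.126), the sole open promoter of HoxD.

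Hoxc10 was at 0.36 and 0.436 (0.398 ± 0.0539). Its peak also lay in the window of an upstream start of Hoxc5, whose annotated model runs through several other HoxC genes, so the 2 genes share 1 peak. Hoxb13, the most posterior gene of HoxB, had the weakest promoter peak of those in both libraries, at 0.35 and 0.264 (0.307 ± 0.061). Hoxb4 had a peak in replicate 2 alone (0.387), within the range of the weakest shared promoters.

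**Figure D2:**
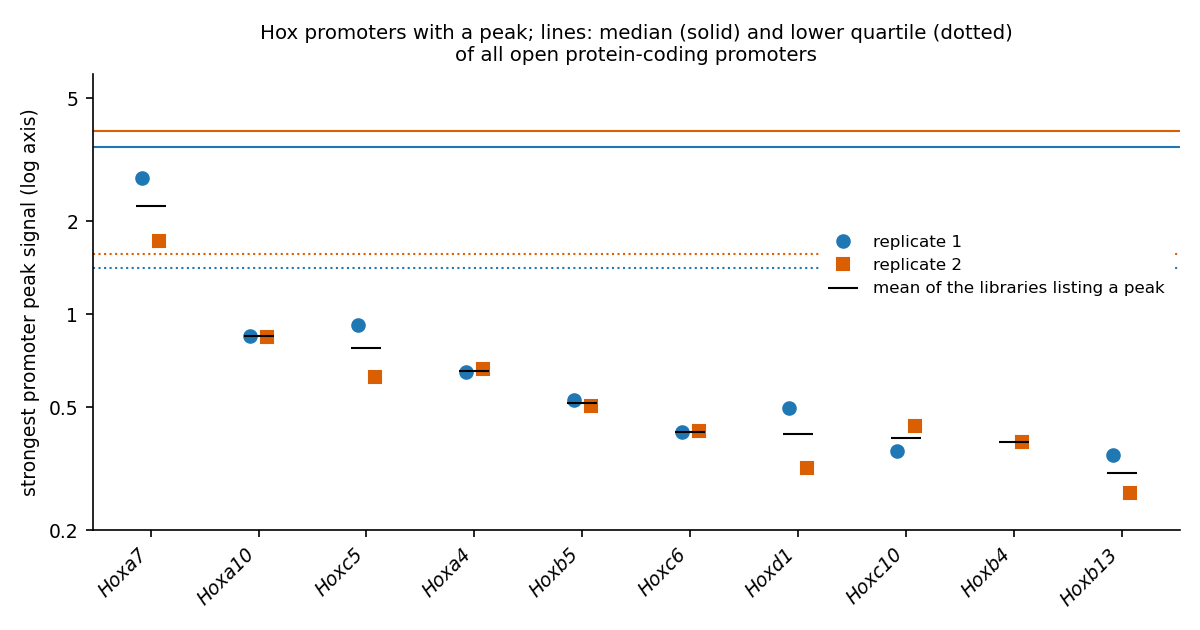
Signal of the strongest promoter peak (vertical log axis) for 10 Hox genes with a promoter peak in at least 1 library (horizontal axis); circles are replicate 1, squares replicate 2 and bars the mean of the libraries that list a peak. All points except those of Hoxa7 lie below the lower quartile of all open promoters (dotted lines, 1.41 and 1.56), and every point lies below the median (solid lines, 3.47 and 3.91).

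The 28 promoters without a peak in either library were spread over all 4 clusters. In HoxA they were Hoxa2, Hoxa3, Hoxa5, Hoxa6, Hoxa9, Hoxa11 and Hoxa13. In HoxB they were Hoxb1, Hoxb2, Hoxb3, Hoxb6, Hoxb7, Hoxb8 and Hoxb9, and in HoxC they were Hoxc4, Hoxc8, Hoxc9, Hoxc11, Hoxc12 and Hoxc13. In HoxD they were Hoxd3, Hoxd4, Hoxd8, Hoxd9, Hoxd10, Hoxd11, Hoxd12 and Hoxd13. A gene without a listed peak has no value in these files, which is not a signal of 0.

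By cluster, both libraries had an open promoter at 3 of 11 genes in HoxA, 2 of 10 in HoxB, 3 of 9 in HoxC and 1 of 9 in HoxD. By position along the axis, 1 of 8 genes of paralogue groups 1 to 3 was open, 5 of 15 of groups 4 to 8 and 3 of 16 of groups 9 to 13. These shares differ by a few genes and were not tested. In 6 of the 13 paralogue groups (2, 3, 8, 9, 11 and 12), which hold 17 genes, no member was open in either library. At the head end of the clusters, where the genes used nearest to the forebrain lie, Hoxd1 was the one gene of groups 1 to 3 open in both.

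The number of open Hox promoters fell with stricter lists. With the authors' stricter peak list 5 remained (Hoxa4, Hoxa7, Hoxa10, Hoxb5 and Hoxc5), against 62.2% of all genes. Among peaks at or above each library's median signal 3 remained (Hoxa4, Hoxa7 and Hoxa10), against 60.8% of all genes. Narrowing the window to 500 bp gave 8 of 39 against 64.8%. Widening it to 2500 bp gave 13 of 39 against 70.4%, adding Hoxa3, Hoxb6, Hoxd8 and Hoxd12.

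The genes next to the clusters were mostly open and strong. Of the 3 nearest protein-coding genes on each side of each cluster, 20 of 24 (83.3%) had a promoter peak in both libraries. Over all genes this share was 66.7%, and it was 93% in the quartile of their median of 81 CpG. The median signal of these neighbours was 7.02. Evx1 and Evx2, homeobox genes that border the group 13 ends of HoxA and HoxD, had no promoter peak in either library, nor had Calcoco2 beside HoxB. Skap1, also beside HoxB, had one of 0.393 in replicate 2 alone.

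Set against all genes, those that work with or on Hox genes were open at a like share or a higher one. The promoters of all 9 Hox cofactors had a peak in both libraries (66.7% of all genes had), with a median signal of 3.91, where the median of all open promoters was 3.84. The strongest was Pknox1 (12.3 ± 3.5), a Meis relative. All 22 genes of Polycomb and the complexes that oppose it were open (median 5.78), with a median of 134 CpG and 96.3% open in the CpG-richest quartile of all genes. They were led by Jarid2 (12.9 ± 5.28), a Polycomb repressive complex 2 cofactor, and Cbx8 (12.9 ± 3.54), a reader of its histone mark. Of 14 genes that act upstream of Hox genes 10 were open in both (71.4%, near the 66.7% of all genes, median 1.6). Their median of 116 CpG falls in the richest quartile, and 71.4% is below the 96.3% open there. Ctcf, which encodes the protein known to bind between Hox genes, had 4.59 ± 0.102. Cdx1 and Cdx2, activators of posterior Hox genes, had no peak.

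Other homeobox genes were grouped by the region they are known for. Of 17 forebrain homeobox genes 16 were open in both libraries (94.1%, median signal 1.8), with Pou3f3 (8.94 ± 2.44) highest. Their median of 108 CpG falls in the richest quartile, where 96.3% of all genes were open in both. The share of the forebrain genes is thus near that of genes of like CpG count. Of 15 homeobox genes of trunk and hindbrain, with a median of 120 CpG, 5 were open in both (33.3%, median signal 0.519). This count rests on the library: 10 of 15 were open in replicate 1 (66.7%, against 68.7% of all genes) and 6 in replicate 2 (40%, against 68.1%), with 6 open in 1 library alone. Of those open in both, Lhx3 (0.914 ± 0.12) and Isl1 (0.725 ± 0.0791) were highest. Of 8 ParaHox and Evx genes, the nearest relatives of the Hox clusters, Gsx1 (1.13 ± 0.054) was the one open in both (12.5%). In replicate 1, 2 were open (25%, against 68.7% of all genes). The 8 had a median of 95.5 CpG, in a quartile where 93% of all genes were open in both. For the Hox genes the values were 23.1% open in both, a median signal of 0.515 and a median of 88 CpG. No test between these sets was made.

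Over the 4 clusters together, peaks were about as dense as in the genome. The 4 spans together cover 491815 bp and held 29 peaks in replicate 1 and 28 in replicate 2. This is 5.79 ± 0.144 peaks per 100 kb, where the genome had 5.62 ± 0.125 and the 100 kb on each side of the clusters had 5.25 ± 0.53. Cut-rate intervals at q of at most 0.05 covered 1.36% of the spans in each library, against 1.58% of the genome and 1.46% ± 0.164 of the flanks. HoxC lay below these, at 4.32 peaks per 100 kb in both libraries and 0.892% ± 0.0134 covered, and HoxB was the densest, at 6.61 ± 0.407 per 100 kb. Cluster peaks had a median signal of 0.649 and 0.651, beside 0.549 and 0.663 for all peaks.

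**Figure D3:**
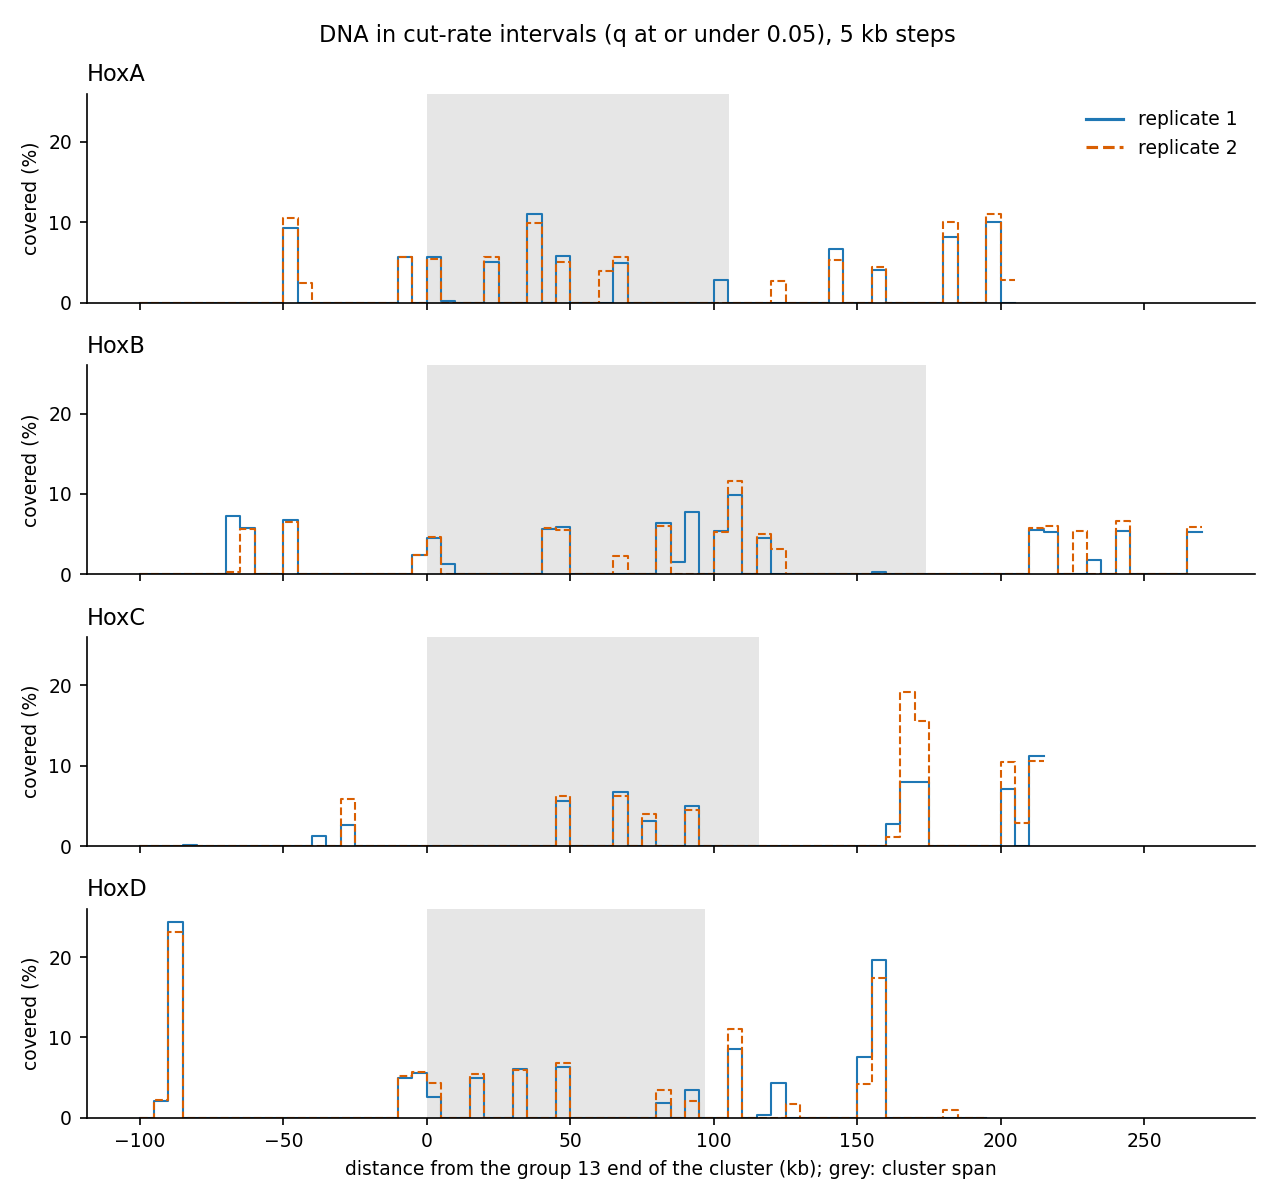
Percent of each 5 kb step covered by cut-rate intervals with q of at most 0.05 (vertical axis) against distance from the group 13 end of each cluster in kb (horizontal axis), solid for replicate 1 and dashed for replicate 2, with the cluster span in grey. Coverage inside the spans comes mostly as separate steps of up to 11.6%, and stretches with little or no coverage lie between them.

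HoxA (chr6:52155590-52260880, minus strand) had 6 peaks in each library, HoxB (chr11:96194316-96368256) had 12 and 11, HoxC (chr15:102921103-103036852) had 5 and 5, and HoxD (chr2:74668310-74765142) had 6 and 6. These and all other coordinates are of mm10, which is GRCm38, and the last 3 clusters are on the plus strand. In each library 10 of the peaks lay in Hox promoter windows (35.1% ± 0.871), which make up 25.1% of the spans, and 11 lay between genes (38.6% ± 0.958), which make up 36.8%. The remaining 8 and 7 lay in gene bodies. A peak that overlapped a promoter window by 1 bp or more was counted there first, and the others were placed by their centre. This raises the promoter share of peaks against that of the span. The share in promoters was not stable: it was 23.2% among peaks at or above the median signal, below that of the span, and in HoxD it was 16.7% of peaks in 30.6% of the span.

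Long stretches of each cluster held no peak in either library. The longest were 33399 bp in HoxA across Hoxa2 and Hoxa3 to just past the start of Hoxa4, 49546 bp in HoxB from Hoxb4 to the end of the cluster past Hoxb1, 45438 bp in HoxC from Hoxc13 to just before Hoxc10, and 33925 bp in HoxD across the coding spans of Hoxd4 and Hoxd3. The HoxB stretch holds the 5′ ends of Hoxb3, Hoxb2 and Hoxb1, so the head end of that cluster was empty. The HoxC stretch holds those of Hoxc13, Hoxc12 and Hoxc11, so there the tail end was empty.

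Of 32 sites in the spans, 25 had a peak in both libraries, which is 86.2% of the peaks of replicate 1 and 89.3% of those of replicate 2. Replicate 1 alone listed 4 sites, with signals of 0.213 to 0.445, and replicate 2 alone 3, of 0.375 to 0.577. None of the 7 held a cut-rate interval in the other library. Signals below 1, the range checked, lay within 0.05 steps of whole multiples of a smallest step, 0.00474 in replicate 1 and 0.00614 in replicate 2. The 7 sites held 45 to 94 steps.

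In every cluster the strongest peak lay between the group 9 gene and the next gene towards the head end. This was noticed in the values and not asked beforehand. Genes are placed here by their main coding span, that is the coding sequence within 8000 bp of its end, because long annotated models of Hoxa3, Hoxb3, Hoxc5, Hoxd3 and Hoxd4 run across their neighbours. The peak between Hoxc9 and Hoxc8 had a signal of 3.80 in replicate 1 and 2.13 in replicate 2 (2.96 ± 1.19). The peak between Hoxb9 and Hoxb8 had 3.69 and 2.21 (2.95 ± 1.05). The peak between Hoxd9 and Hoxd8 had 3.22 and 2.03 (2.62 ± 0.836).

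The fourth was the promoter peak of Hoxa7 (2.24 ± 0.721), which lies between Hoxa9 and Hoxa7, since HoxA has no group 8 gene. It overlaps the 5′ untranslated end of Hoxa7, and the other 3 overlap no Hox exon. The HoxB and HoxC peaks stood alone, at 3.14 and 4.12 times the second peak of their cluster in replicate 1 and 2.64 and 3.39 times in replicate 2. In HoxA the ratio was 1.36 and 1.32, and in HoxD 1.52 and 1.30. The 4 peaks ranked between the 82.9th and the 94th percentile of all peaks of their library. The position was the same in 4 of 4 clusters with spans extended by 20 kb. It was also the same in each library alone and with the stricter list, which kept the same strongest signals. The last 2 are not separate checks, since the position was read from these same values.

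**Figure D4:**
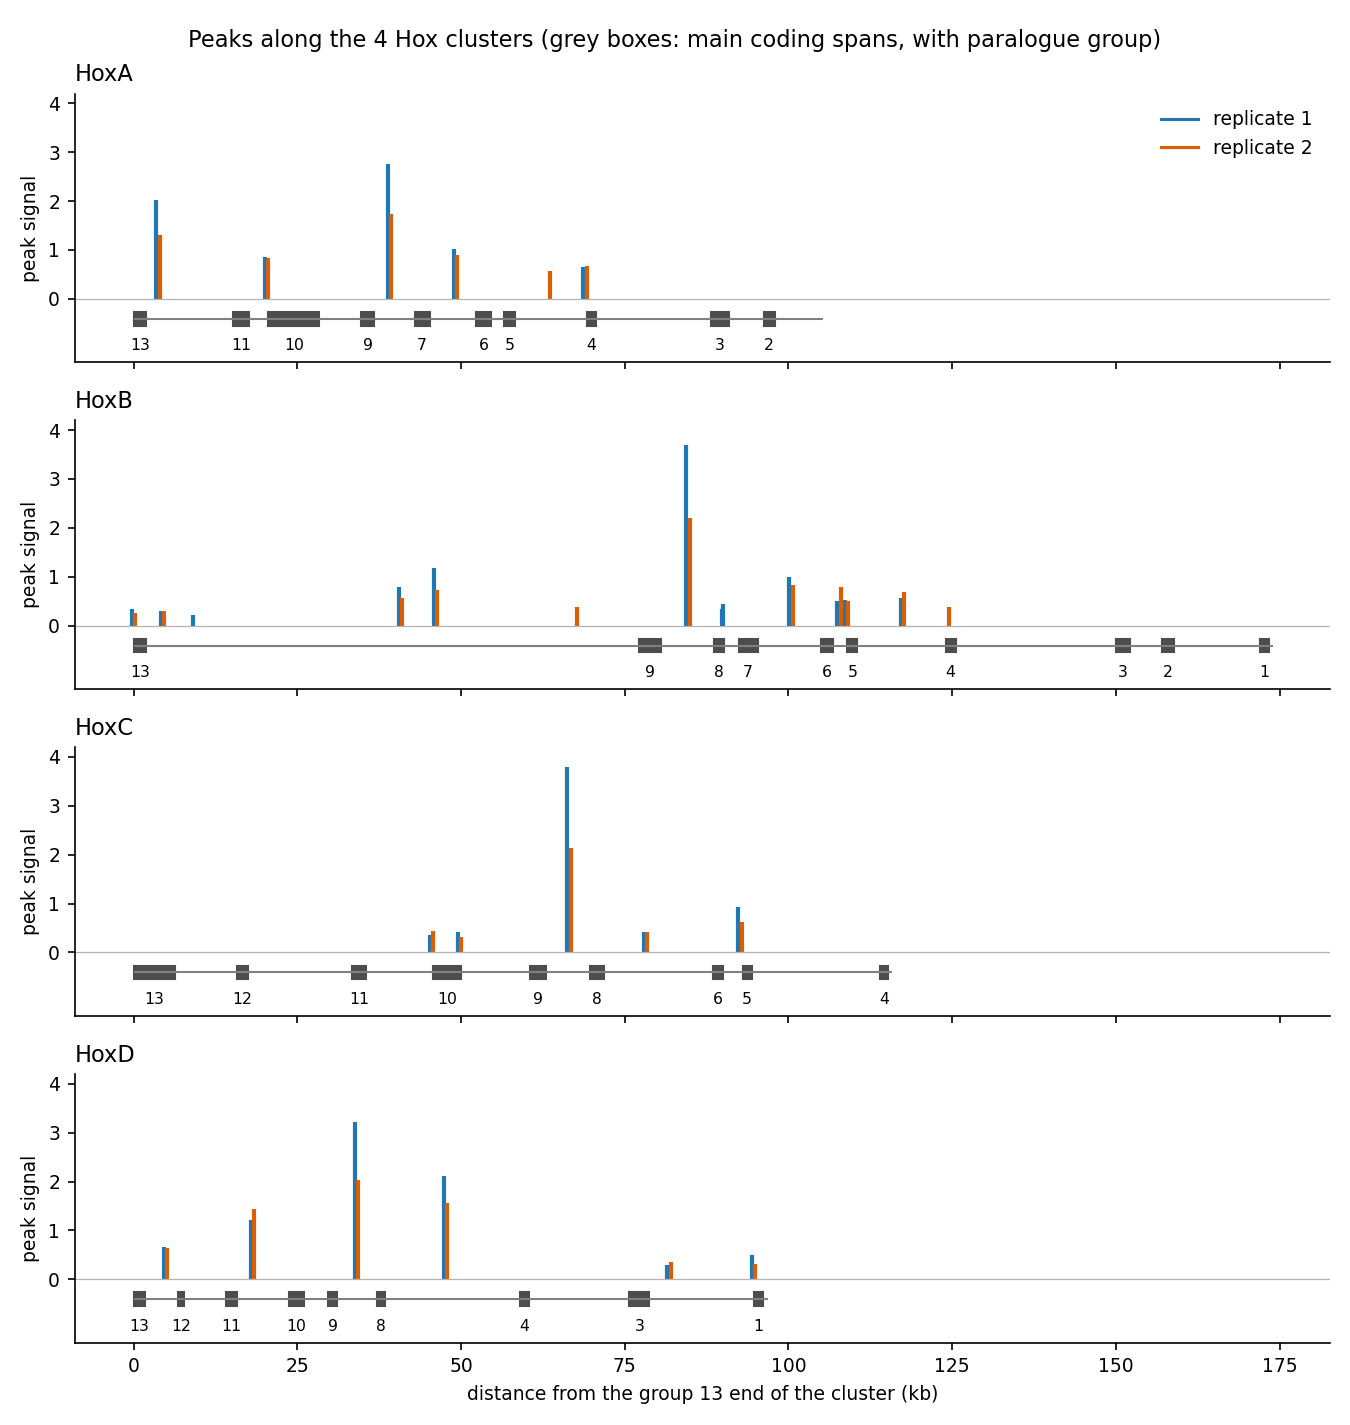
Peak signal (vertical axis) against distance in kb from the group 13 end (horizontal axis) for each of the 4 clusters, blue for replicate 1 and orange for replicate 2, above the main coding span of the Hox genes with their paralogue numbers. The tallest line in each panel stands to the right of gene 9 in both libraries, at 3.80 and 2.13 in HoxC and 2.75 and 1.73 in HoxA.

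The 30 bases around the best CTCF-like word of each of these 4 peaks are printed here to show what the copies share, with the word in capitals and each read 5′ to 3′ on the strand named.
Hoxc9 to Hoxc8, chr15:102987585-102987614, plus strand: acaagtgaACGCGAGGTGGCgctgttgctc
Hoxb9 to Hoxb8, chr11:96278940-96278969, plus strand: cacagtggCCGCTAGATGGCatccttgctc
Hoxd9 to Hoxd8, chr2:74702387-74702416, plus strand: gcatttggCCACTAGAGAGCgctgttgctc
Hoxa9 to Hoxa7, chr6:52221799-52221828, minus strand: agaaaattCCAGGAGATGGCagtgtggctc
The word, a short form of the CTCF motif, is CC, any 3 bases, AG, any 2 bases, then GGC. It has 12 bases with 7 fixed letters, and the HoxC and HoxD copies carry 1 mismatch to it. In all 4 the word lies on the strand on which the Hox genes of that cluster are transcribed.

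Of the 30 columns of these sequences, 10 hold the same base in all 4 clusters, 5 of 12 in the word, 5 of the 10 after it and 0 of the 8 before it. All 4 end in gctc, which stands 6 bases after the word. This was noticed after the sequences were read. In all peaks of replicate 1, 1.22% of the exact copies of the word were followed by gctc at that distance. This is not a like set, since it takes peaks of any signal and exact copies alone, and the HoxC and HoxD copies carry 1 mismatch. The word was picked in each peak as the best match to its 7 fixed letters. Likeness inside it was therefore set by the search and cannot be weighed against the bases around it. Pairs of clusters shared 6 to 9 of the 12 bases of the word and 28.8% to 42.5% of the 80 bases around it, without gaps.

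The other strong sites, placed by main coding spans in the same way, lay between further Hox genes. The peak between Hoxd8 and Hoxd4 had 2.12 in replicate 1 and 1.57 in replicate 2 (1.84 ± 0.389), and that between Hoxa13 and Hoxa11 had 2.03 and 1.31 (1.67 ± 0.504). The peak between Hoxd11 and Hoxd10 had 1.21 and 1.43 (1.32 ± 0.155). The next were at about 1, between Hoxa7 and Hoxa6 (1.02 and 0.903), between Hoxb13 and Hoxb9 (1.17 and 0.725) and between Hoxb7 and Hoxb6 (1.00 and 0.835). By full annotated models, the sites between Hoxd8 and Hoxd4, Hoxd11 and Hoxd10, Hoxa7 and Hoxa6, and Hoxb7 and Hoxb6 lay in gene bodies. So did the Hoxc9 to Hoxc8 peak, and the Hoxd11 to Hoxd10 peak overlaps an exon of Hoxd11. Of the 10 strongest shared sites 1, that of Hoxa7, lay in a promoter window. Hoxd3os1, an antisense transcript, starts within 1 kb of the Hoxd8 to Hoxd4 peak, and the transcript 9530018H14Rik within 1 kb of the Hoxa13 to Hoxa11 peak.

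The best words of these 6 sites show how far they vary.
Hoxd8 to Hoxd4, chr2:74715913-74715942, plus strand: agctttgtCCAGGAGGAGGCgctgtaggac
Hoxa13 to Hoxa11, chr6:52257113-52257142, plus strand: gcttgtcaACACGAGGTGGCgcccttgatc
Hoxd11 to Hoxd10, chr2:74686472-74686501, plus strand: ttctacagCCACACGAGGGCgcgctcatgt
Hoxa7 to Hoxa6, chr6:52211705-52211734, plus strand: gcgccggtCCCGGCGACGGCcacagcgtgg
Hoxb13 to Hoxb9, chr11:96240381-96240410, plus strand: tcccttgaCTTCGAGCTGGCagggctttct
Hoxb7 to Hoxb6, chr11:96294688-96294717, minus strand: ccgaacggACGGTAGATGGCagcaaactgc
Of the 10 strongest sites, 7 carry the word on the strand of the Hox genes and 3, between Hoxa13 and Hoxa11, Hoxa7 and Hoxa6, and Hoxb7 and Hoxb6, on the other.

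The count of CTCF words depended on how the word was written. The word first chosen, which also asks for C at the fourth base, was in 2 of 29 cluster peaks of replicate 1 (6.9%) and 3 of 28 of replicate 2 (10.7%), near the 5.39% and 4.90% of all peaks. Those holding it were the Hoxb9 to Hoxb8 peak, the Hoxa10 promoter peak and, in replicate 2, a peak of 0.375 between Hoxb13 and Hoxb9. After the sequences of the strong peaks had been read, 2 looser forms were tried. With any base at the fourth place, the form given above, it was in 6 and 7 cluster peaks (20.7% and 25%) against 13.3% and 12.2% of all peaks. With 1 mismatch allowed it was in 23 and 22 (79.3% and 78.6%), but also in 57.3% and 55.7% of all peaks, so its presence alone says little.

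Footprints, the short protected stretches inside a peak that a bound protein leaves, were counted per kb of peak. Cluster peaks held 14 ± 1.51 footprints per kb, against 11.6 in all peaks, but the clusters differed. HoxA was at 18.3 ± 1.93, HoxD at 15.2 ± 0.212, HoxB at 12.8 ± 1.94 (11.4 in replicate 1) and HoxC at 10.3 ± 0.83, below all peaks in both libraries. A footprint of 25 bp or more was in 13 of 29 cluster peaks of replicate 1 (44.8%, against 21.2% of all peaks) and in 8 of 28 of replicate 2 (28.6%, against 22.4%). In the number of such peaks HoxB alone differed between libraries, with 5 of 12 peaks in replicate 1 and 0 of 11 in replicate 2. HoxA had 3 in each library, but not all at the same sites. The Hoxa7 to Hoxa6 peak had 30 bp in replicate 1 and 10 bp in replicate 2, and the Hoxa10 promoter peak had 23 bp and 29 bp.

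Nearly all strong peaks held a long footprint, and some weak ones did too. A signal over 1, a limit set after the values were seen, was reached by 10 of 29 cluster peaks in replicate 1 (34.5%, against 26.3% of all peaks) and by 7 of 28 in replicate 2 (25%, against 31.9%). Of cluster peaks with a signal over 1, 10 of 10 in replicate 1 and 6 of 7 in replicate 2 (85.7%) held a footprint of 25 bp or more. Over all peaks with a signal over 1 the shares were 59.6% and 54.2%. Long footprints also lay in weaker cluster peaks, at Hoxc5 in both libraries (signals of 0.923 and 0.627), at Hoxa10 in replicate 2 (0.842) and at 2 sites between Hoxb13 and Hoxb9 in replicate 1 (0.303 and 0.786). At the Hoxa7 start the longest footprint was 47 bp in replicate 1 and 46 bp in replicate 2, and at the Hoxd9 to Hoxd8 peak 45 bp and 33 bp. The Hoxc9 to Hoxc8 peak had 34 bp and 30 bp. The Hoxb9 to Hoxb8 peak had 32 bp and 23 bp, so it passed the limit in replicate 1 alone.

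**Figure D5:**
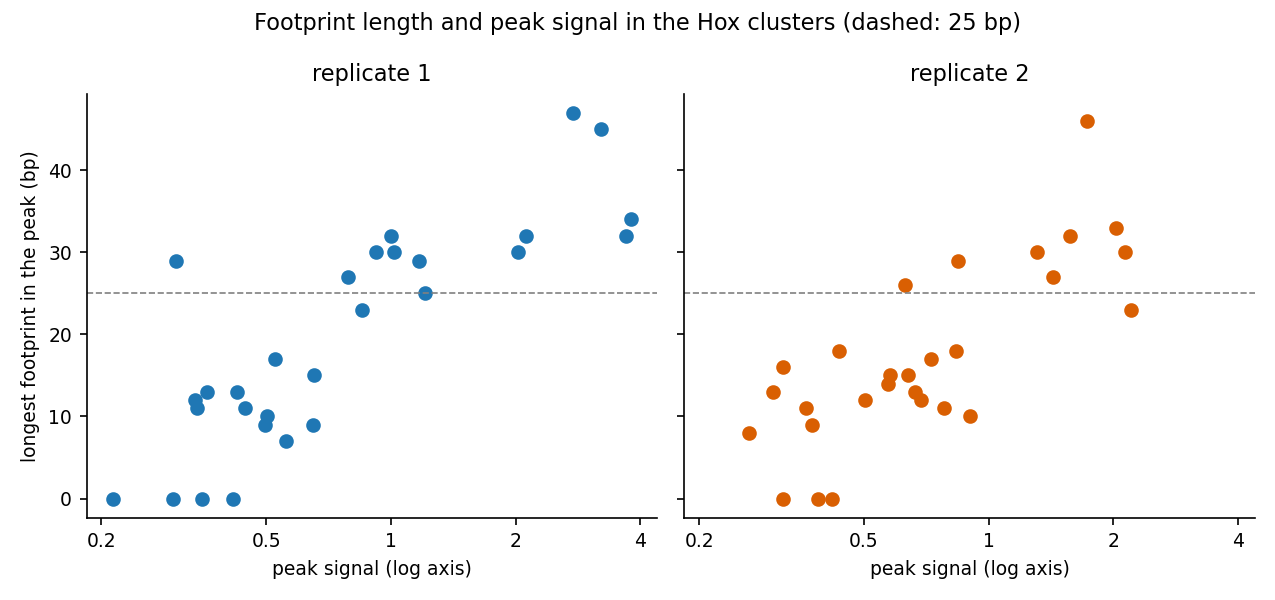
Length in bp of the longest footprint (vertical axis) against peak signal (horizontal log axis) for each cluster peak, replicate 1 on the left and replicate 2 on the right; the dashed line marks 25 bp. Of the peaks with a signal over 1, 1 lies under the line, the Hoxb9 to Hoxb8 peak of replicate 2 at 23 bp.

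At most strong sites a footprint lay on the word. At 7 shared sites the mean signal was over 1, and at all 7 the best word had at most 1 mismatch and at least 10 of its 12 bases inside a footprint in both libraries. This measure was also added after the sequences were read. The sites that shaped it and the signal limit are those counted here, so the shares below are not a separate check. Per library, 9 of 10 cluster peaks with a signal over 1 in replicate 1 and 7 of 7 in replicate 2 had such a word, against 38.1% and 31% of all peaks with a signal over 1. Over cluster peaks of any signal it was 15 of 29 (51.7%) and 10 of 28 (35.7%), against 15.4% and 14.5%. The exception in replicate 1 was the Hoxb13 to Hoxb9 peak of 1.17, whose word lay outside its footprints. Of the 9 shared promoter sites 2, those of Hoxa7 and Hoxa10, had such a word in both libraries. Over all shared sites, 21 had a best word of at most 1 mismatch, and 10 of these had it under a footprint in both. A footprint over a word describes the cleavage there and does not name the bound protein.

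The whole peaks of replicate 1 at 3 of the strongest sites are printed with their footprints in capitals, to show that the long footprint covers the word and the bases after it, gctc included.
Hoxc9 to Hoxc8, chr15:102987501-102987700, plus strand: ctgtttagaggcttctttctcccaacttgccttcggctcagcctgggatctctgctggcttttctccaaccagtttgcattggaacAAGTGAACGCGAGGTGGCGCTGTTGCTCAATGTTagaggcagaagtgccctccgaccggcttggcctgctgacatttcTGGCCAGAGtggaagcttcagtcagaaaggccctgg
Hoxb9 to Hoxb8, chr11:96278901-96279060, plus strand: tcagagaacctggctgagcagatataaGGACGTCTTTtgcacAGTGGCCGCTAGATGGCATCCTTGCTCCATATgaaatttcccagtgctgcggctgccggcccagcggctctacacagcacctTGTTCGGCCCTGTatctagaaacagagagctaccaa
Hoxd9 to Hoxd8, chr2:74702321-74702500, plus strand: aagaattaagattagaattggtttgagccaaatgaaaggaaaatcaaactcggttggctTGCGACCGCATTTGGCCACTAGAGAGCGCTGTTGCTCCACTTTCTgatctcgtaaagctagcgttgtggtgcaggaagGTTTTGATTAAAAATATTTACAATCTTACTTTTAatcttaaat
The HoxD peak holds a further footprint that lies over a run rich in A and T, and the HoxC and HoxB peaks hold short ones besides.

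Words of factors known to act on Hox genes were absent or rare in the cluster peaks. The Hox-Pbx word TGATTNAT, searched on both strands, was in 0 cluster peaks of either library, against 1.82% and 1.71% of all peaks, although the spans hold 73 copies of it. The word of Cdx factors, TTTATGGC, was likewise in 0, against 0.367% and 0.343%, with 43 copies in the spans. The Meis-Pbx word was in 0 cluster peaks, against 0.109% and 0.099% of all peaks, as were that of the repressor REST (0.0809% and 0.0611%) and the retinoic acid response element (0.0332% and 0.0469%). At backgrounds this low a count of 0 is not a difference. NF-Y (CCAATCA) was in 1 peak of each library, at Hoxb13, and Sp (GGGGCGGGG) in 1, at Hoxa4, near their backgrounds of 2.73% and 2.72% for NF-Y and 3.54% and 3.35% for Sp.

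Most shared Hox sites were higher in replicate 1, some by very little, while most shared peaks of the genome were not. Over all 118593 shared peaks the median log2 ratio of replicate 1 to replicate 2 was -0.25, and 33598 peaks were higher in replicate 1. Over the 25 shared Hox sites it was 0.27, and 18 were higher in replicate 1. At the 7 Hox sites with a footprint of 25 bp or more in both libraries it was 0.62 (6 of 7 higher in replicate 1). At the other 18 it was 0.05 (12 of 18 higher in replicate 1), which is near equal signals. All shared peaks with an exact copy of the CTCF-like word had a median of 0.08 and those without it -0.30. The ratio was not taken over all peaks of like signal or footprint length, so whether it is particular to the Hox sites was not tested. Whether the pooling of 3 males in replicate 1 had a part in the difference was not tested. The SD values of the strong sites, up to 1.19, carry this difference between libraries.

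The spans also hold 46 genes that are not Hox genes by name, 3 of them protein-coding. The share open over all genes of the other types was not taken. Of the 46, 4 had a promoter peak in both libraries. These were 9530018H14Rik (2.03 and 1.31) and Hoxd3os1 (2.12 and 1.57), whose peaks are the strong sites named above, Haglr, a long noncoding RNA gene beside Hoxd1, and Gm27898 (0.303 and 0.301). Haglr has 2 peaks near its annotated starts in both libraries, the Hoxd1 promoter peak (0.497 and 0.319) and one between Hoxd3 and Hoxd1 (0.298 and 0.362). The 7 microRNA genes of the spans, among them Mir10a, Mir10b, Mir196b and Mir615, had no peak within 1000 bp of their annotated start in either library.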

How the data were processed

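Per the notes deposited with the files, the authors made each file from the mm10 alignments of that library alone. Which aligner and callers they used is not given in the sources used here. The authors deposited 2 peak lists per library with a signal per peak (the larger list was used, the stricter one as an alternative), footprints with 1 constant p-value (positions alone were used), and cut-rate intervals with a q-value of at most 0.05.

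Genes were GENCODE M21 on GRCm38 (21 chromosomes). A gene's promoter signal was that of its strongest peak within 1000 bp of any start. Peaks were shared when they overlapped by 1 bp or more. Words were searched on both strands. With 1 group of 2 libraries no test was made. The members, lists (12, with 139 symbols), words and named-gene rule were chosen with earlier results of these data known. The cut-rate profile is in 5 kb steps, coarser than planned. Values are printed for each open Hox gene, the 10 strongest shared sites, every peak with the first CTCF word, the 2 strongest genes per list and the neighbours; a few genes that this rule names are not reported or drawn here, though they stay in all counts. Python 3.11.15, NumPy 2.4.6 and pandas 2.3.3 were used. Functions were tested on simulated data. Alternatives covered windows, peak lists, q limits, overlaps, words, footprint lengths and each library alone.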

Additional observations from a re-analysis of the deposited data

How the results depend on the processing

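No paired analysis was possible because the design has 1 group. The stricter peak list gave 5 open Hox promoters with a median signal of 0.775, 3.96 peaks per 100 kb, a promoter share of 28.3%, 17 footprints per kb and 0 open genes in groups 1 to 3 and 1 in groups 9 to 13. Peaks at or above the median signal gave 3 open promoters, 0.847, 3.05 peaks per 100 kb, 23.2%, 17.3 footprints per kb and 0, 2 and 1 open genes in the 3 position groups. A window of 500 bp gave a median of 0.585 and a share of 31.6%, one of 2500 bp gave 0.656, 56.1% and 2 open genes in groups 1 to 3, the 5′ end alone gave 0.417 and 31.6%, and peak centres gave 0.585. Cut-rate intervals at q of at most 0.001 gave 5 open promoters and 0.848% of the spans, at q of at most 0.01 1.12%, and spans without promoters 1.26%. Spans extended by 20 kb gave 5.22 peaks per 100 kb, and a reciprocal overlap of 50% gave 84.2% sharing. The looser CTCF words raised the mean count of peaks from 2.5 to 6.5 and 22.5. With each library alone the median promoter signal was 0.47 to 0.511 and 1 to 2 genes of groups 1 to 3 were open. Of 72 alternative values for 11 single genes 70 moved by less than the spread between libraries, the others being Hoxb5 at 2500 bp (0.653) and Hoxc5 by its 5′ end (0.398). The causes were not tested. The SD over 2 libraries is itself imprecise.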
